A study of Homo sapiens with 6 samples.

Results

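Small nucleolar RNA host genes (SNHGs) are long non-coding genes whose introns carry small nucleolar RNAs (snoRNAs), the guides that direct 2′-O-methylation or pseudouridylation of ribosomal and spliceosomal RNA. The 10 genes described here are GAS5, SNHG1, SNHG5, SNHG6, SNHG7, SNHG8, SNHG12, SNHG15, ZFAS1 and EPB41L4A-AS1, taken by symbol from the deposited count table of 31582 genes. All 10 were found, and all 10 were among the 16394 genes with enough reads to be tested. They were compared between CALR knockdown and control MDA-MB-231 cells, an established triple-negative breast cancer line. The knockdown cells (MDA-MB-231-shCALR) carry a short hairpin RNA against CALR, the gene of the endoplasmic reticulum chaperone calreticulin, and the control cells are named MDA-MB-231-NTC. Both were grown in the same serum-containing medium and collected before confluence, and polyadenylated RNA was sequenced, with 3 libraries per group. Separate cultures, clones and the number of hairpins are not stated in the labels. The p-values therefore measure the spread between these libraries, which may be technical.

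In a host gene the snoRNA is cut out of the excised intron, while the spliced exons usually have no long reading frame. Many host transcripts begin with a terminal oligopyrimidine (TOP) sequence, the start also found on messenger RNAs of ribosomal proteins, and many spliced host RNAs are bound by ribosomes and removed by nonsense-mediated decay (NMD). Growth state, ribosome production and decay thus all bear on their steady-state level. Several members are also studied in tumours, GAS5 as an RNA that accumulates in growth-arrested cells.

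Total reads per library lay between 34639090 and 42425310. Read numbers are given as CPM, counts relative to library size after TMM scaling, and levels are compared between genes as the authors' FPKM, which also corrects for gene length. Remaining CALR, relative to the mean of the controls, was 47.5%, 6.39% and 10.6% in knockdown replicates 1, 2 and 3, so depletion differed between the libraries. The line's own markers were abundant, with VIM at 1697 to 3177 CPM and CD44 at 388 to 624 CPM over the 6 libraries, and the hormone receptor genes ESR1 (at most 0.596 CPM) and PGR (at most 2.03 CPM) were near 0. Blood markers summed to 4.25 to 6.39 CPM in knockdown and 5.16 to 6.03 CPM in control libraries over 6 of 7 listed genes found. PTPRC was at 0 to 0.257 CPM, and CD68, the highest of them, at 3.28 to 5.15 CPM. Fibroblast and endothelial markers summed to 12.4 to 19.3 CPM in knockdown and 9.97 to 17.5 CPM in control libraries over 8 of 8. VWF was at 0 to 0.132 CPM and CDH5 at 0 to 0.0537 CPM, and LUM, the highest of them, at 5.13 to 13.3 CPM. Luminal markers summed to 122 to 194 CPM in knockdown and 135 to 147 CPM in control libraries over 9 of 9. The highest of these were KRT19, at 70.2 to 127 CPM, and the receptor gene ERBB2, at 27.8 to 46.7 CPM, so not all were near 0. Markers with an unadjusted p under 0.05 were the line's own EGFR (log2 fold change −0.84 ± 0.17, SE), VIM (0.65 ± 0.16) and AXL (0.52 ± 0.22), luminal GATA3 (0.48 ± 0.21), fibroblast DCN (−2.23 ± 0.86, at most 2.88 CPM) and endothelial PECAM1 (1.19 ± 0.44, at most 4.17 CPM). Their part in the results was not tested. In bulk RNA, fewer cells that express a gene and less RNA per cell cannot be told apart.

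The sequences around the annotated starts are shown because many host genes are known for a TOP start. For 8 of the 10 members a RefSeq window (GRCh38.p14) was used; the other members are SNHG6 and SNHG15. Each line gives 50 bases 5′ to 3′ on the gene's strand, of which base 26 is the first transcribed base. Capitals mark the unbroken run of C or T that begins there.
GAS5: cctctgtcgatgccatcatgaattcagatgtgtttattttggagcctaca
SNHG1: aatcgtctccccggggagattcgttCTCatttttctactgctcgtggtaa
SNHG5: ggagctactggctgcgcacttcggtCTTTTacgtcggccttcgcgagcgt
SNHG7: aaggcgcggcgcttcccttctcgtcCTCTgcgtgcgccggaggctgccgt
SNHG8: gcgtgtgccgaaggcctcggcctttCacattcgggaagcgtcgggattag
SNHG12: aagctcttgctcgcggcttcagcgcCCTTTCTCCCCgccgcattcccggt
ZFAS1: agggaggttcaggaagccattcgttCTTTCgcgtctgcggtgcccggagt
EPB41L4A-AS1: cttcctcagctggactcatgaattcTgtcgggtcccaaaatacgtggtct
These windows lie at chr1:173869021-173869070 (GAS5, minus strand), chr11:62855861-62855910 (SNHG1, minus), chr6:85678709-85678758 (SNHG5, minus), chr9:136728160-136728209 (SNHG7, minus), chr4:118278737-118278786 (SNHG8, plus), chr1:28581849-28581898 (SNHG12, minus), chr20:49278617-49278666 (ZFAS1, plus) and chr5:112160501-112160550 (EPB41L4A-AS1, plus). A start on C followed by at least 4 further pyrimidines, read on the gene's strand only, was present in 3 of the 8, SNHG5, SNHG12 and ZFAS1. SNHG12 had the longest run, of 11 bases. Among 35116 RefSeq windows of all genes, 4.07% start this way. Among 22 windows of other non-coding snoRNA hosts 18.2% do, and among 52 windows of protein-coding hosts 36.5%. SNHG1, SNHG7 and SNHG8 start on C with a shorter run. The RefSeq start of GAS5 lies upstream of the GENCODE span of the gene. Those of SNHG12 (base 28581873) and ZFAS1 (base 49278642) lie inside the span, whose 5′ end is at 28583132 and 49278178. Those of SNHG1, SNHG5 and SNHG8 also lie inside, nearer to the 5′ end. Such windows may not hold the start used in these cells.

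The members carry 34 RefSeq snoRNAs inside their spans, 25 of the box C/D kind (SNORD) and 9 of the box H/ACA kind (SNORA). GAS5 carries 11, SNHG1 8 and SNHG12 4, ZFAS1 carries 3, SNHG5 and SNHG7 carry 2 each, and the other 4 genes carry 1 each. To show what such a gene is processed for, 3 of these snoRNAs are printed 5′ to 3′ as given in GENCODE release 29. In SNORD30 and SNORD50B the capitals mark the first TGATGA (box C) and the last CTGA (box D), and in SNORA24 they mark the ACA near the 3′ end, each searched on the printed strand. SNORD30 lies at chr11:62853663-62853732 (minus strand), SNORD50B at chr6:85677589-85677658 (minus) and SNORA24 at chr4:118279190-118279320 (plus).
SNORD30: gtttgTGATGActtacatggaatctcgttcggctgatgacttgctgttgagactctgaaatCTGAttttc
SNORD50B: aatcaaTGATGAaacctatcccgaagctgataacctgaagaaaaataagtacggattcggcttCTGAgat
SNORA24: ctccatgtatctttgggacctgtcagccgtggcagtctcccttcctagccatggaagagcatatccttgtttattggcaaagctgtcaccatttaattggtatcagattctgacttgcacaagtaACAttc
The count table has 16 snoRNA rows that lie inside 7 of the hosts on the same strand. Mature snoRNAs carry no poly(A) tail, and these rows held few reads, at most 52 per row and library. SNORD30, inside SNHG1, had 9, 9 and 3 reads in the knockdown libraries (always in the order of replicates 1 to 3) against 8, 3 and 7 in the control libraries. SNORD50B, inside SNHG5, had 4, 16 and 6 against 8, 7 and 3 reads. SNORA24, inside SNHG8, had 9, 9 and 6 against 7, 10 and 14 reads. Both groups overlapped for each of these 3 rows. Summed over the 16 rows there were 139, 177 and 107 reads in knockdown and 161, 114 and 161 in control libraries, which also overlap. Only 3 rows had enough reads for the test. These were SNORD22 in SNHG1 (log2 fold change 0.23 ± 0.35, SE), SNORD99 in SNHG12 (0.77 ± 0.59) and SNORA61 in SNHG12 (−0.10 ± 0.30), and none passed it. Another row of SNHG1 is also named SNORD22. It had 5, 8 and 2 reads in knockdown against 8, 5 and 10 in control libraries and was not tested. Of the 16 rows, 11 lie wholly within annotated exons of the host, so their reads may also be reads of the host RNA.

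Most members had fewer reads in CALR knockdown than in control cells. SNHG1 and SNHG12 were below all 3 controls in all 3 knockdown libraries, and GAS5, SNHG7, SNHG8, SNHG15, ZFAS1 and EPB41L4A-AS1 were below all controls in replicates 1 and 2 but not in replicate 3. SNHG5 and SNHG6 had positive differences. The fitted log2 fold change was negative for 8 of 10 members, where it was negative for 50.1% of all genes tested, and the median of the 10 was −0.41 against 0.00 for all genes (−0.0007). No member passed the threshold of 0.05 on the adjusted p in edgeR's quasi-likelihood test, and neither did any other gene, 0% of 16394. Over all genes 2546 had an unadjusted p under 0.05, DESeq2 called 530 and limma-voom 0, and edgeR called 2604 without knockdown replicate 2 and 138 without replicate 3. At an unadjusted p under 0.05, 3 of 10 members were lower (SNHG1, GAS5 and SNHG12) and 0 higher, where 7.36% of all genes tested were lower and 8.17% higher. That last split depends on the scaling, with 1340 of 2546 such genes higher under TMM, 730 of 2539 with library size alone and 2301 of 3381 after a correction for GC content.

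**Figure D1:**
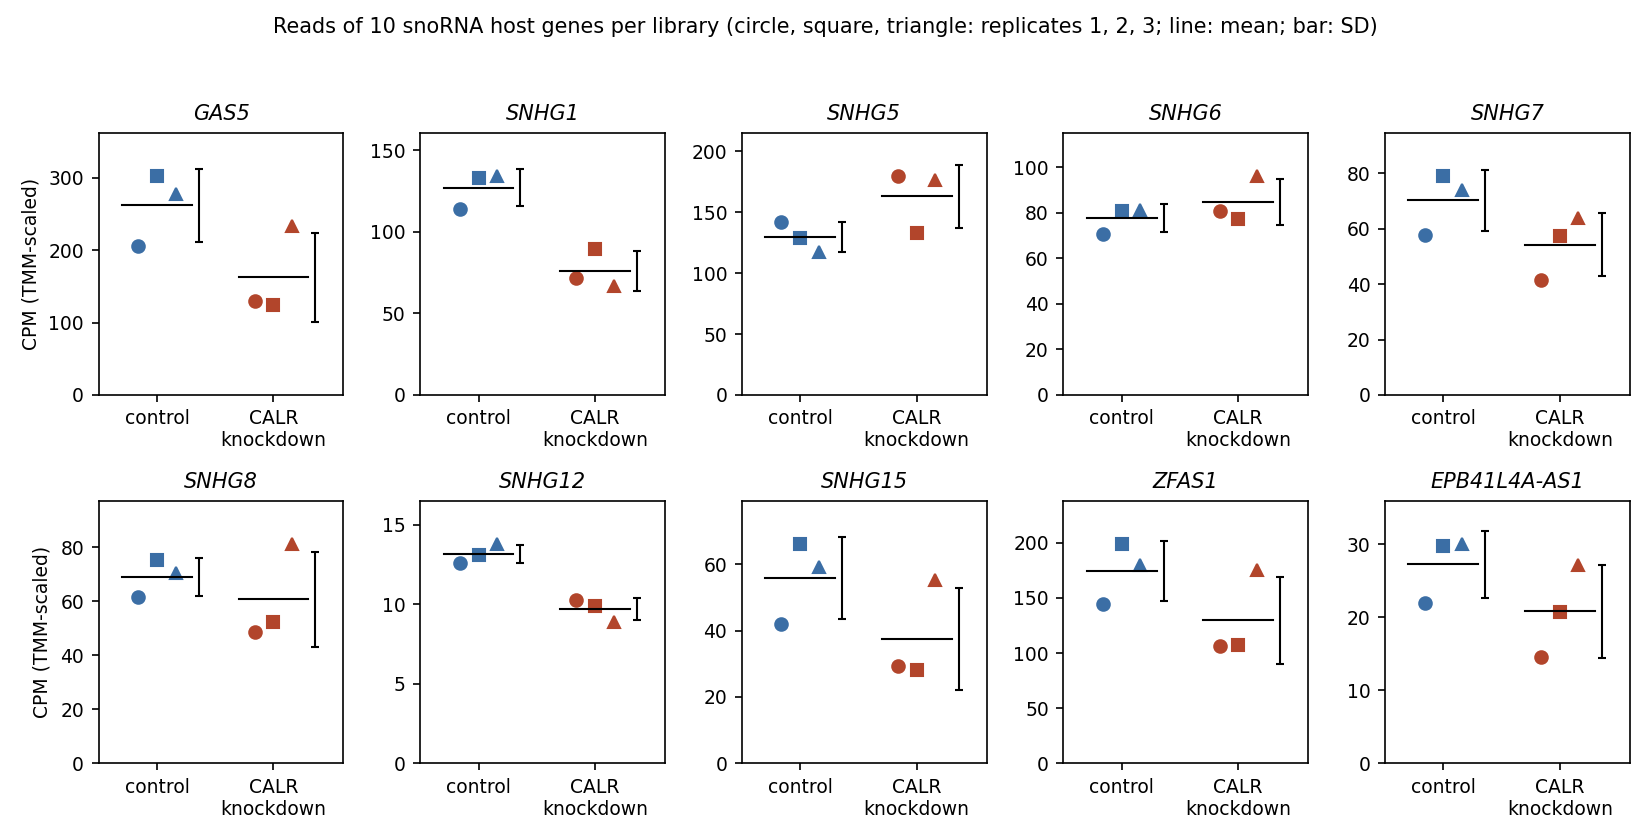
Reads of each snoRNA host gene in each library as TMM-scaled CPM (y axis, from 0), for 3 control (blue) and 3 CALR knockdown libraries (red), with circles, squares and triangles for replicates 1, 2 and 3, a line at the mean and a bar for the SD. The knockdown libraries of SNHG1 lie between 66.6 and 89.6 CPM and those of its controls between 114 and 134 CPM. For GAS5 the triangle of knockdown replicate 3, at 233 CPM, lies above the lowest control, at 206 CPM.

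SNHG1, the host of SNORD22 and SNORD25 to SNORD31, had the largest fitted difference and the smallest p of the 10. It lies on chromosome 11 at 62851988 to 62855914 of GRCh38 (minus strand, ENSG00000255717.6), with annotated exons over 95.6% of its span. It was at 71.6, 89.6 and 66.6 CPM in the knockdown libraries, against 114, 133 and 134 CPM in the controls. Every knockdown library was below every control. Mean values were 75.9 ± 12.1 CPM with the hairpin and 127 ± 11.2 CPM without it (SD, n = 3), a ratio of 59.7%. The log2 fold change was −0.74 ± 0.17 (SE, unadjusted p = 0.0020, adjusted p = 0.168 from edgeR). In all 17 alternative fits the unadjusted p stayed at or below 0.013 and the log2 fold change between −0.88 and −0.61. SNHG1 passed the adjusted threshold with DESeq2 (adjusted p = 0.021), without the filter on low counts (0.027) and without knockdown replicate 2 (0.016). Without the filter its SE was 0.21, the same as that of GAS5, so that p may not reflect the gene's own spread.

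SNHG12, the host of 3 H/ACA snoRNAs and SNORD99, was the other member whose groups were apart. These 2 of 10 genes lower and 0 higher compare with 11.2% and 11.3% of all genes tested. SNHG12 lies on chromosome 1 at 28578538 to 28583132 (minus strand, ENSG00000197989.13). It was at 10.3, 9.89 and 8.91 CPM in knockdown and 12.6, 13.1 and 13.8 CPM in control libraries. The highest knockdown library was thus below the lowest control, by a margin smaller than that of SNHG1. The means were 9.68 ± 0.70 and 13.1 ± 0.57 CPM (SD, n = 3), and the log2 fold change was −0.44 ± 0.19 (SE, unadjusted p = 0.044, adjusted p = 0.310 from edgeR). The unadjusted p was above 0.05 in 8 of 17 alternatives and reached 0.158 without control replicate 3.

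GAS5, the host with the most snoRNAs and the member with the most reads in control cells, had a large difference that rested on 2 of the 3 knockdown libraries. It lies on chromosome 1 at 173863900 to 173868882 (minus strand, ENSG00000234741.7). It was at 129, 125 and 233 CPM in knockdown and 206, 302 and 278 CPM in control libraries. Replicates 1 and 2 had log2 differences of −0.997 and −1.05 from the control mean, while replicate 3, at −0.15, was within the control range. The fitted log2 fold change was −0.69 ± 0.27 (SE, unadjusted p = 0.031, adjusted p = 0.282 from edgeR). It was −1.03 without knockdown replicate 3 and −0.53 without replicate 2. In edgeR the unadjusted p was 0.114 without knockdown replicate 1, 0.10 without control replicate 2 and 0.126 after the GC correction, where the log2 fold change was −0.49. Without the filter on low counts GAS5 passed the adjusted threshold (edgeR adjusted p = 0.046). In that fit GAS5, SNHG1, SNHG5, SNHG6 and ZFAS1 all had an SE of 0.21. In the main fit their SEs were 0.27, 0.17, 0.17, 0.16 and 0.23. The p without the filter may thus not reflect the spread of GAS5 itself between the libraries.

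The same replicate 3 set apart further members. SNHG15, the host of SNORA9 (chromosome 7, 44983023 to 44986961, minus strand), was at 29.3, 28.0 and 55.2 CPM in knockdown and 42.1, 66.0 and 59.3 CPM in control libraries. ZFAS1, the host of the SNORD12 family, which starts head to head with the helicase gene ZNFX1 (chromosome 20, 49278178 to 49295738, plus strand), was at 106, 107 and 176 CPM against 145, 199 and 180 CPM. In both genes knockdown replicates 1 and 2 were below all controls and replicate 3 lay among them. The log2 fold change was −0.57 ± 0.29 (SE, unadjusted p = 0.084) for SNHG15 and −0.43 ± 0.23 (SE, unadjusted p = 0.10) for ZFAS1, both from edgeR. Without knockdown replicate 3 they were at −0.95 and −0.69, with unadjusted p-values of 0.0033 and 0.0051. The other knockdown libraries moved them the other way, to −0.42 and −0.30 without replicate 1 (unadjusted p of 0.241 and 0.284 from edgeR) and to −0.40 and −0.30 without replicate 2 (0.204 and 0.222).

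EPB41L4A-AS1, the host of SNORA13 (chromosome 5, 112160526 to 112164276, plus strand), was at 14.5, 20.8 and 27.2 CPM in knockdown and 22.0, 29.8 and 30.0 CPM in control libraries. SNHG7, the host of SNORA17A and SNORA17B (chromosome 9, 136721366 to 136728184, minus strand), was at 41.6, 57.4 and 63.8 CPM against 57.7, 79.0 and 74.1 CPM. SNHG8, the host of SNORA24 (chromosome 4, 118278709 to 118279823, plus strand), was at 48.7, 52.4 and 81.0 CPM against 61.5, 75.4 and 70.3 CPM. In all 3 genes replicate 1 had the lowest value of the 6 libraries, and for SNHG8 replicate 3 had the highest. The log2 fold changes were −0.39 ± 0.26 for EPB41L4A-AS1, −0.37 ± 0.21 for SNHG7 and −0.19 ± 0.22 for SNHG8 (SE, unadjusted p of 0.168, 0.110 and 0.419). Single libraries moved them: without knockdown replicate 1 they were −0.18, −0.21 and −0.05, and without replicate 3 EPB41L4A-AS1 was at −0.61 and SNHG8 at −0.44.

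SNHG5 and SNHG6 did not share the lower values. SNHG5, the host of SNORD50A and SNORD50B (chromosome 6, 85660950 to 85678748, minus strand), was at 180, 133 and 176 CPM in knockdown and 142, 128 and 118 CPM in control libraries. Replicates 1 and 3 were above all controls, and replicate 2 was among them. The log2 fold change was 0.33 ± 0.17 (SE, unadjusted p = 0.088, adjusted p = 0.383 from edgeR). In edgeR it was 0.46 without knockdown replicate 2 (unadjusted p = 0.0083) and 0.47 after the GC correction (unadjusted p = 0.024). It was 0.19 with library size alone (edgeR unadjusted p = 0.218), 0.26 without knockdown replicate 1 and 0.27 without control replicate 3. SNHG6, the host of SNORD87 (chromosome 8, 66921684 to 66926398, minus strand), was at 81.0, 77.2 and 96.0 CPM against 70.7, 80.9 and 81.4 CPM. Only replicate 3 was above all controls, and the difference of 0.13 ± 0.16 was smaller than its error. For SNHG6 it was 0.39 after the GC correction and −0.02 with library size alone. The median of all genes was itself 0.08 after the GC correction and −0.13 with library size alone.

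**Figure D2:**
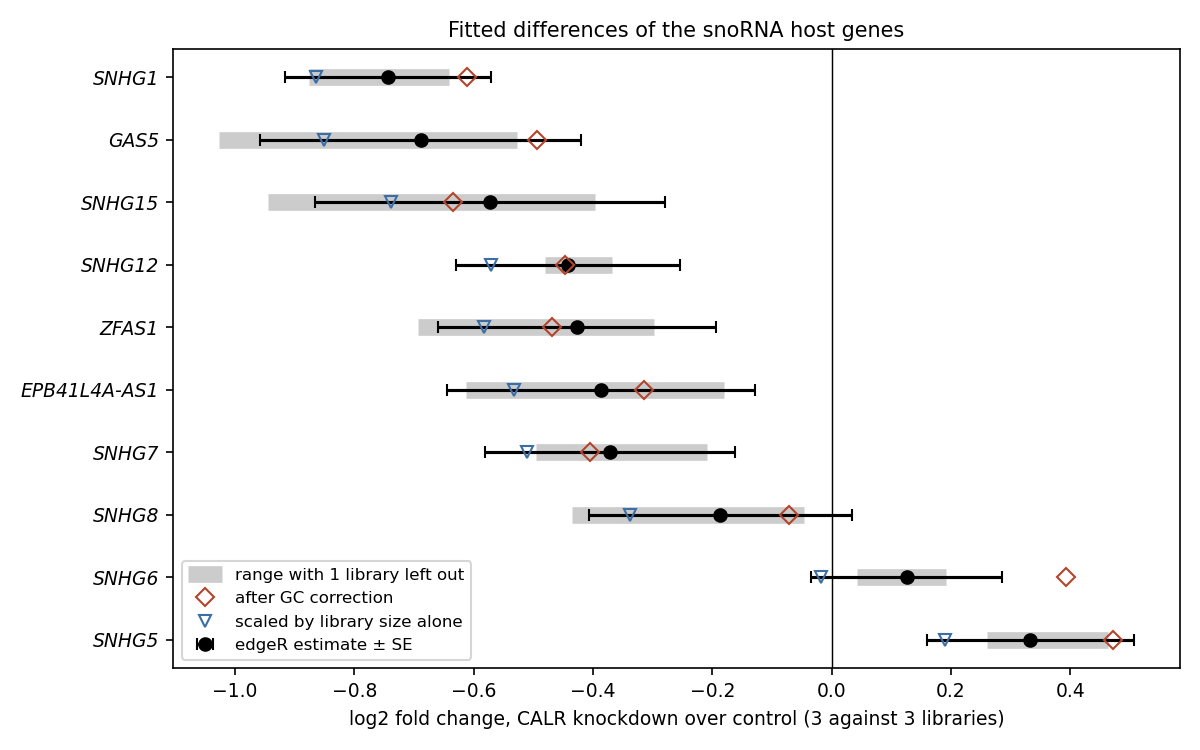
Fitted log2 fold change of each snoRNA host gene, CALR knockdown over control (x axis), as the edgeR estimate with its SE (black), after GC correction (open diamonds), with library size alone (open triangles) and over the 6 fits with 1 library left out (grey bars). SNHG1, at −0.74, keeps all its estimates below −0.6, and the estimates of SNHG6 lie between −0.02 and 0.39.

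Library by library, the members split by replicate. In knockdown replicate 1, 8 of 10 members were below all controls, 1 was within their range and 1 (SNHG5) was above. In replicate 2 the same 8 genes were below and 2 within the range. In replicate 3 only SNHG1 and SNHG12 were below, 5 were within and 3 (SNHG5, SNHG6 and SNHG8) were above all controls. How many of all genes tested lay below or above all controls in a single library was not counted. These counts per library thus have no background share and only describe the members. The median difference of the 10 from the control mean was −0.72, −0.40 and 0.01 on the log2 scale in replicates 1 to 3. For all genes tested it was −0.022, −0.0021 and −0.0061 in these libraries. The members' median was −0.21, 0.14 and 0.08 in control replicates 1 to 3, so that control replicate 1 lay toward the knockdown side. The remaining CALR, highest in replicate 1 and lowest in replicate 2, did not follow the order of the members' medians. The 10 genes together took 0.0668%, 0.0736% and 0.0864% of all reads in knockdown replicates 1 to 3, against 0.0891%, 0.116% and 0.111% in control libraries. These are shares of raw reads, without TMM scaling. Knockdown replicate 3 came close to control replicate 1, and the TMM factors of these libraries were 0.879 and 1.02. The small gap between them thus reverses after scaling. On the TMM scale the members' median was also higher in knockdown replicate 3 (0.01) than in control replicate 1 (−0.21). SNHG5 made up 25.2%, 19.0% and 17.9% of the members' reads in knockdown and 16.3%, 11.6% and 11.3% in control libraries.

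**Figure D3:**
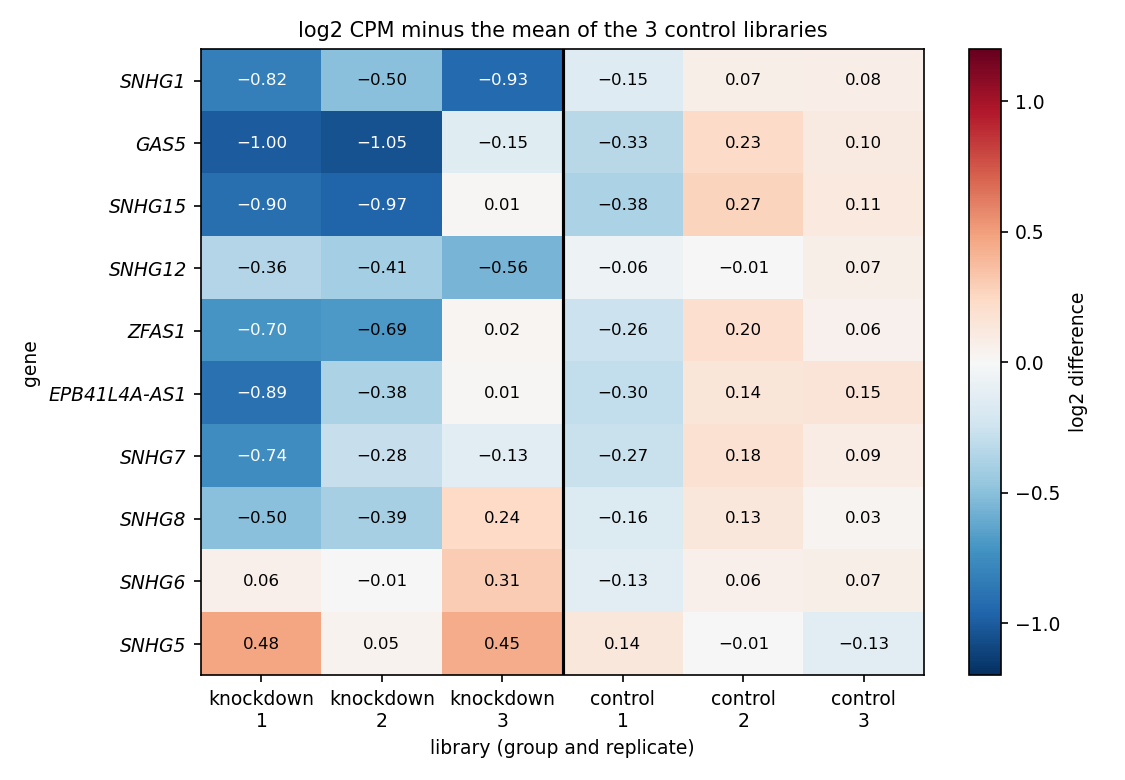
Difference of each snoRNA host gene's log2 CPM from the mean of the 3 control libraries (colour and number), with genes as rows and libraries as columns. The 2 left columns are mostly blue, with values down to −1.05 for GAS5, and in knockdown replicate 3 only SNHG1 (−0.93) and SNHG12 (−0.56) are below −0.2.

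On the FPKM scale, which allows levels of different genes to be compared, GAS5 was the most abundant member in control cells at 159 ± 33.6 (SD, n = 3), followed by SNHG8 at 101 ± 12.4. Their ranges did not overlap. SNHG1 (78.7 ± 8.92), SNHG6 (78.1 ± 8.06), ZFAS1 (76.9 ± 13.5) and SNHG5 (66.9 ± 4.51) came next, each overlapping its neighbour in this order. SNHG7 (15.9 ± 2.85) and SNHG15 (15.0 ± 3.60) overlapped each other at a lower level, as did EPB41L4A-AS1 (8.99 ± 1.72) and SNHG12 (7.89 ± 0.55). In knockdown cells GAS5 (89.0 ± 27.7), SNHG8 (80.3 ± 18.9), SNHG6 (77.8 ± 4.55) and SNHG5 (77.0 ± 7.95) overlapped in this order. SNHG1, whose rank in control cells was 3, had rank 6 at 43.4 ± 10.3, behind ZFAS1 at 51.8 ± 12.7.

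Several members overlap or adjoin other genes, and reads can be shared between strands where the counting ignored strand, which is not given in the sources used here. SLC3A2, the amino acid transporter heavy chain, starts 188 bases from SNHG1 on the other strand. It was at 243, 322 and 636 CPM in knockdown and 422, 575 and 534 CPM in control libraries. Unlike SNHG1, SLC3A2 was highest in knockdown replicate 3, and its log2 fold change was −0.35 ± 0.33 (−0.84 without that library, −0.09 without replicate 1 and −0.21 without replicate 2). EPB41L4A overlaps 49.6% of the exon bases of EPB41L4A-AS1 on the other strand and was at 3.03, 1.47 and 3.33 CPM against 6.72, 6.81 and 7.31 CPM. Its groups were apart, with a log2 fold change of −1.42 ± 0.32 (SE, unadjusted p = 0.0018, adjusted p = 0.166 from edgeR). FAM69B, which overlaps 25.2% of the exon bases of SNHG7, was low in both groups, at 0.257, 0.0745 and 0.0805 CPM against 0.846, 0.741 and 1.17 CPM. Its groups were also apart (log2 fold change −2.74 ± 0.53, edgeR unadjusted p = 0.00062, adjusted p = 0.149). EPB41L4A and FAM69B passed the adjusted threshold with DESeq2 (adjusted p = 0.0032 and 0.0082). In edgeR they also passed it without the low-count filter and without knockdown replicate 2 (0.020 and 0.028 in the latter). The other tested neighbours were ZNFX1 (0.16 ± 0.17), which overlaps ZFAS1, TRNAU1AP (0.39 ± 0.24) beside SNHG12, and ZBTB37 (−0.15 ± 0.33) and GAS5-AS1 (0.58 ± 0.38, at 0.275 to 0.590 CPM) beside GAS5. MCMDC2, which overlaps SNHG6, had too few reads to be tested.

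The other long non-coding snoRNA hosts also had mostly negative differences. Of 28 symbols listed, which include older names for 2 genes, 18 were in the table and 15 were tested, without SNHG14, SNHG22 and SNHG23. Of the 15, 12 had a negative log2 fold change, with a median of −0.24. SNHG17 was the 1 gene past an unadjusted p of 0.05, at 24.1, 26.1 and 30.9 CPM in knockdown and 31.3, 41.3 and 40.1 CPM in control libraries (−0.47 ± 0.19). Its groups were apart, by a small margin between knockdown replicate 3 and control replicate 1. So were those of SNHG19 (−0.24 ± 0.21), SNHG20 (−0.44 ± 0.22) and SNHG21 (−0.66 ± 0.31). Of all genes tested, 7.36% were lower at that p, and 11.2% had groups apart and lower. The abundant hosts SNHG16 (−0.06 ± 0.14) and LRRC75A-AS1, also called SNHG29 (−0.19 ± 0.18), had small differences. C6orf48, also called SNHG32, was at 110, 78.5 and 187 CPM against 144, 169 and 152 CPM (−0.31 ± 0.29, −0.70 without knockdown replicate 3, −0.06 without replicate 2 and −0.22 without replicate 1). Like GAS5 it was below all controls in knockdown replicates 1 and 2, and in replicate 3 it was above them. SNHG11 (−0.49 ± 0.29), SNHG3 (−0.31 ± 0.19), SNHG10 (−0.18 ± 0.29) and SNHG9 (−0.08 ± 0.30) had negative values, and SNHG25 (0.24 ± 0.31), DANCR (0.08 ± 0.20) and SNHG4 (0.07 ± 0.51) positive ones. SNHG18 was at 0, 0.0497 and 1.15 CPM against 1.19, 1.10 and 1.01 CPM, so its −1.45 ± 1.03 is uncertain and was −5.20 without knockdown replicate 3 and −0.87 without replicate 1.

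Genes that share the snoRNA load or the TOP start but encode proteins had another distribution. Of 50 protein-coding snoRNA hosts, among them many ribosomal protein genes, 35 had positive values and 15 had negative ones, with a median log2 fold change of 0.13. It was 0.05 without knockdown replicate 3 and 0.26 without replicate 2. With library size alone it was −0.01, where the median of all genes was −0.13. At an unadjusted p under 0.05, where 7.36% of all genes tested were lower and 8.17% higher, 2 of these hosts were lower and 1 higher. These were WDR43, a ribosome biogenesis factor (−0.57 ± 0.19, and −0.37 after the GC correction), TOMM20, the mitochondrial import receptor (−0.36 ± 0.14, and −0.11 after the GC correction), and the splicing factor SF3B3 (0.45 ± 0.15). Of 21 TOP messenger RNAs of translation outside the ribosomal proteins, 13 were positive with a median of 0.03, and 2 were higher and 0 lower at that threshold. They were VIM (0.65 ± 0.16), the intermediate filament gene, and the elongation factor subunit EEF1D (0.53 ± 0.15). The difference between these lists and the 10 non-coding hosts was not tested.

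The machinery that assembles snoRNAs into particles had no shared direction. Of 20 tested genes for snoRNP proteins and assembly factors, 10 were positive and 10 negative, with a median of 0.00 (−0.0006). RUVBL2, an ATPase of the assembly complex, was at 0.45 ± 0.18 and TAF9 at −0.46 ± 0.15, the 2 genes past an unadjusted p of 0.05. Of all genes tested, 15.5% were past it, 7.36% lower and 8.17% higher. Among 22 NMD factors 13 were positive, with a median of 0.06. UPF3B, which links the exon junction complex to decay, was at 10.6, 20.4 and 9.74 CPM in knockdown and 23.6, 21.4 and 27.9 CPM in control libraries (−0.84 ± 0.30), and SMG5 was at 0.47 ± 0.20 (0.31 without knockdown replicate 3). The median of 19 regulators of TOP mRNAs was 0.04, and 3 were lower and 2 higher at that threshold. PDCD4, a translation inhibitor (−0.71 ± 0.23, and −0.46 after the GC correction), EIF4EBP2, a repressor of cap-dependent translation (−0.54 ± 0.20), and RPS6KB1, the S6 kinase gene (−0.51 ± 0.23, and −0.29 after the GC correction), were lower, and MLST8, a subunit of the mTOR complexes, was higher (0.52 ± 0.21, and 0.30 without knockdown replicate 3). RPTOR, the mTORC1 scaffold, was the other higher gene (0.45 ± 0.18, and 0.30 without knockdown replicate 3) and was chosen after its value was seen. The medians of the snoRNP, NMD, TOP messenger RNA and TOP regulator lists each changed sign with 1 or another library left out, and stayed between −0.04 and 0.17.

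**Figure D4:**
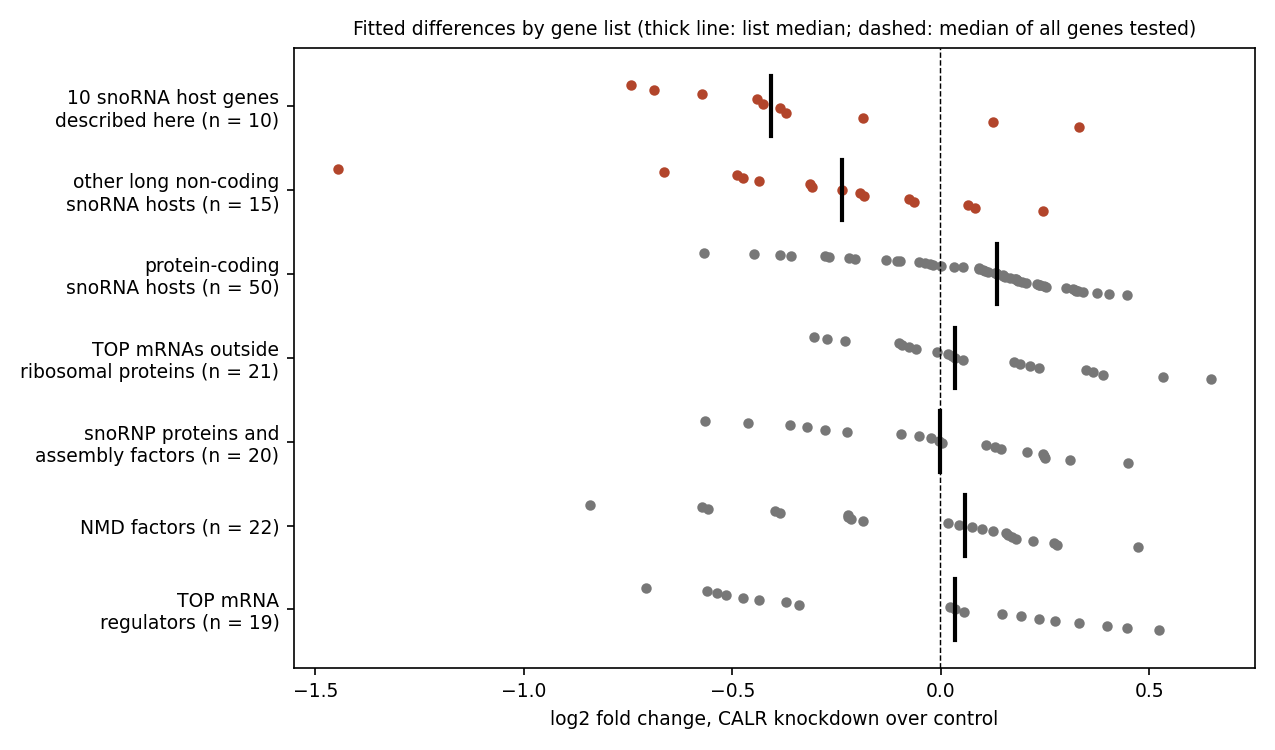
Fitted log2 fold changes, CALR knockdown over control (x axis), of the tested genes of each list (points), with the list median (thick line) and the median of all 16394 genes tested (dashed). The medians of the 10 host genes (−0.41) and the other non-coding hosts (−0.24) are negative, and those of the other 5 lists lie between 0.00 and 0.13.

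The 5 genes outside the list whose profile over the 6 libraries was nearest to the members' mean profile were MRAS, a RAS-family GTPase, TADA2B, a transcriptional adaptor subunit, GCC1, a golgin, HSPBAP1, and the ubiquitin ligase RNF14. The measure was the root-mean-square distance of centred log2 CPM, which was 0.038 for MRAS, 0.039 for TADA2B, 0.041 for GCC1, 0.051 for HSPBAP1 and 0.053 for RNF14. The members themselves were at 0.111 (SNHG8) to 0.414 (SNHG5) from their own mean profile. MRAS was at 15.0, 15.5 and 21.0 CPM in knockdown and 17.9, 23.5 and 23.1 CPM in control libraries. MRAS had its lowest values in knockdown replicates 1 and 2, with replicate 3 within the control range, as 5 of the 10 members also had it. The profiles share library depth and scaling, and only 6 libraries define them.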

How the data were processed

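RNA sequencing of 3 CALR knockdown and 3 control libraries of MDA-MB-231 cells was used. The authors' build was GRCh38, with TopHat2 and FastQC 0.9.5 among their tools, per the submitters' processing notes; how reads were counted, on which strand and with which annotation is not given in the sources used here. The deposited count table holds whole reads per gene. The deposited FPKM table holds values scaled to gene length and library size, rounded to 2 decimals. Genes were filtered with filterByExpr, scaled with TMM and tested in edgeR 4.0.16 (R 4.3.3) by its quasi-likelihood test, with no covariate and Benjamini-Hochberg adjustment over 16394 genes. SE was taken as |log2 fold change| / sqrt(F), and log2 CPM per library has a prior count of 2. DESeq2 1.42.0 and limma 3.58.1 served for alternatives, and the edgeR script was tested on simulated data. The GC correction subtracted each library's spline trend (5 degrees of freedom) with transcript GC content. Positions, overlaps and snoRNA sequences come from GENCODE 29 on GRCh38, which all 10 member identifiers matched without and 8 with the version number, and start windows from RefSeq. The members and gene lists were chosen with earlier results of these data known. Named genes were the members, tested non-coding hosts, genes overlapping a member or starting within 5 kb of its start, the nearest 5 profiles (mean log2 CPM of at least 1), and up to 4 genes per list with an unadjusted p under 0.05; 1 gene that this rule names is not reported here. Within groups, pairs of libraries had a chi-square of 11.8 to 199 per gene, so none is a repeat of another.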

Additional observations from a re-analysis of the deposited data

How the results depend on the processing

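Of the 10 members, 9 kept the sign of their log2 fold change in all 17 alternatives. SNHG6 was at −0.018 with library size alone and at −0.0024 with limma on log2(FPKM + 1) and on log2(FPKM + 0.1), where fold changes are on the log2(value + pseudocount) scale and only genes that reached 1 FPKM in 3 libraries were tested; the median of all genes was −0.13, −0.08 and −0.11 in these 3. The members' median stayed between −0.55 and −0.25 with 1 library left out. The number of members past the adjusted threshold was 0 in the main test, 1 with DESeq2, 2 without the low-count filter and 0 to 1 with 1 library left out. Without the filter edgeR gave several members nearly the same SE, and the adjusted p of CALR went from 0.209 to 1.4e-19. Those p-values may thus not reflect each gene's own spread between libraries. At an unadjusted p under 0.05, 3 members were lower; this became 6 with library size alone and on both FPKM scales, and 1 to 6 with 1 library left out (1 without control replicate 2 or 3, 6 without knockdown replicate 3). Of all genes tested, 7.36% were lower in the main test, 11% with library size alone, 10.7% and 10.5% on log2(FPKM + 1) and log2(FPKM + 0.1), 4.62% and 4.36% without control replicates 2 and 3, and 9.03% without knockdown replicate 3. The count of higher members, 0, became 1 after the GC correction (14.1% of all genes) and 0 to 1 with 1 library left out (1 without knockdown replicate 2, 17.9% of all genes). Over all genes, 0 passed, against 530 with DESeq2, 988 without the filter, 12 after the GC correction and 0 to 2604 with 1 library left out (2604 without knockdown replicate 2, 138 without replicate 3). The cause was not tested. The labels do not say whether equal replicate numbers pair the libraries. Correlations of deviations from the group means were 0.20, −0.12 and −0.22 for equal numbers, and 0.36 for knockdown replicate 2 with control replicate 3. With 3 libraries per group these cannot decide the pairing, because the deviations within a group sum to 0. With the replicate block 0 genes and 0 members passed in edgeR, and 2209 genes had an unadjusted p under 0.05 against 2546. With the replicate block and GC correction 108 genes passed. There 5 members were lower and 1 higher at that p, as were 7.22% and 12.9% of all genes. With 2 knockdown or control libraries left, the spread is pooled over both groups by edgeR.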
